A study of Mus musculus with 12 samples.

Results

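The genes described here are interleukins and interleukin receptors outside the core of the IL-1 family, taken as the 72 symbols, of 55401 genes in the deposited table, that begin with Il and a number, without 10 members of the IL-1 family (Il1a, Il1b, Il1rn, Il1r1, Il1r2, Il1rap, Il18, Il18bp, Il33 and Il1rl1), pseudogenes and opposite-strand transcripts. By role, 33 code for ligands, 35 for receptor chains, 3 for decoy or soluble inhibitors and 1 for an enzyme that only shares the name, Il4i1. The symbol rule still takes in relatives of IL-1. These are the receptor chains Il18r1, Il18rap, Il1rl2, Il1rapl1 and Il1rapl2, the ligands Il1f6, Il1f8, Il1f9 and Il1f10 and the inhibitor Il1f5. Of the 72 genes, 47 had enough counts to be tested and 25 did not.

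Interleukins are the secreted proteins by which leukocytes, and many other cells, signal to each other, and most act through receptors built from a ligand-specific chain and a chain shared with related cytokines. Receptors of the common gamma chain, common beta chain, IL-6 and IL-12 groups signal through JAK kinases and STAT transcription factors, whereas IL-17 receptors signal through the adaptor Act1 and the ligase TRAF6. In the peritoneal cavity the IL-5 receptor is known as a receptor of resident B-1 cells, and IL-6 is a cytokine long associated with the fluid that ovarian tumours shed into the cavity.

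C57BL/6J mice were lavaged intraperitoneally with 8 mL of buffered saline, and RNA of the recovered cells was sequenced. The 4 libraries of each group are labelled as biological replicates. ID8 mice had received the line labelled ID8 (defb29/Vegf-a). ID8-FSHR mice had received the line labelled ID8 (defb29/Vegf-a) FSHR, which carries the follicle-stimulating hormone receptor in addition. Uninjected mice had received nothing. The parental ID8 line arose from mouse ovarian surface epithelium, and both lines used here are derivatives with the beta-defensin Defb29 and the growth factor Vegfa. Both tumour groups were sampled at day 7 after intraperitoneal injection, and since no group was injected without tumour cells, tumour cells and the injection itself cannot be told apart. The number of cells injected differs between the series text and the sample protocol. The sources give neither the age or sex of the mice nor whether either line was a single clone.

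The libraries held 47419608 to 64333677 counts, and 3 counts, taken as the upper limit for a gene with 0 counts, are 0.0444 to 0.0653 CPM (counts scaled by library size), a limit that covers counting error only. Defb29 had 23.8, 8.41, 21.6 and 20.1 CPM in ID8-FSHR mice, 26.5, 20.8, 28.4 and 29.1 CPM in ID8 mice and 0, 0, 0 and 0 CPM in uninjected mice. Vegfa averaged 62.2 ± 18.2 CPM in ID8-FSHR mice and 52.3 ± 4.72 CPM in ID8 mice, against 1.94 ± 0.411 CPM in uninjected mice (SD, n = 4 each). Both genes of the injected lines were thus higher in all 8 tumour libraries than in any uninjected one. Fshr had 7 counts in ID8-FSHR replicate 4, 2 in ID8-FSHR replicate 3, 2 in ID8 replicate 3 and 0 in the other libraries, so its row does not check the ID8-FSHR label. ID8-FSHR replicate 2 stood apart from the other tumour libraries, with the lowest Defb29 and a mean correlation with the uninjected libraries of 0.877, against 0.823 to 0.835 in the other 7. Without it, 27 of the 28 calls described below for ID8-FSHR mice against uninjected mice, 30 of the 30 for ID8 mice against uninjected mice and 6 of the 7 between the tumour lines stayed past the threshold. The exceptions, Il7r and Il12rb2, are named beside their values.

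The 250 bases before the RefSeq start of 5 members are printed here, so that a reader can see the regulatory sequence beside the values below. Of these members, Il6, Il17rc and Il22ra1 were higher in both tumour groups than in uninjected mice, and Il5ra and Il9r were lower. Il6 was not among the largest increases, and members with larger ones, such as Il34, are not shown. RefSeq windows on build GRCm38.p6 were found for 55 of the 72 members. Capitals mark every match, on either strand, to 7 short motifs, which are those of the STAT factors (TTCNNNGAA), NF-kB (the last capitals of the Il6 window show a match), AP-1 dimers (TGANTCA), the C/EBP family (TTGNGNAAT), the GATA factors (AGATAA), the myeloid and B cell factor PU.1 (GAGGAA), and the TATA box of core promoters (TATAAA). No matches overlap in these windows. All run 5′ to 3′ toward the gene.
Il6, chr5:30012864-30013113, plus strand: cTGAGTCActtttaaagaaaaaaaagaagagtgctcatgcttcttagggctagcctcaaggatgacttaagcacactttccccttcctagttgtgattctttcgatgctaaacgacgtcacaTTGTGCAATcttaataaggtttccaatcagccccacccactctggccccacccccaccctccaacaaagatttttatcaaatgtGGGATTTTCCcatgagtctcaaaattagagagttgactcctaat
Il17rc, chr6:113471205-113471454, plus strand: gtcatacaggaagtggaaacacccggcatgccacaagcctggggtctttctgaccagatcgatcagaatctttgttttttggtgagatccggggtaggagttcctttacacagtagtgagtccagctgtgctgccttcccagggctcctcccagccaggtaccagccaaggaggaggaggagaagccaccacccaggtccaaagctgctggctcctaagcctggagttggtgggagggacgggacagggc
Il22ra1, chr4:135727909-135728158, plus strand: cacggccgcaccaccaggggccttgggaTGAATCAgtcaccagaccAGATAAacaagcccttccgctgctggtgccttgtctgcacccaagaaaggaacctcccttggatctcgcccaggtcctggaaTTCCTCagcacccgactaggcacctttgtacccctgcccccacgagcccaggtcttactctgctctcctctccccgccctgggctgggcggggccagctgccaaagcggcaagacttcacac
Il5ra, chr6:106749038-106749287, minus strand: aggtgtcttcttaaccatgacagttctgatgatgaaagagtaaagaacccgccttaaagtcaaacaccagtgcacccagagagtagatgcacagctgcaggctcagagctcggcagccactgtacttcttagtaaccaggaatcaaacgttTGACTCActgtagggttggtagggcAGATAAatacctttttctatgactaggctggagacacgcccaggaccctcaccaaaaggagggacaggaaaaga
Il9r, chr11:32200280-32200529, minus strand: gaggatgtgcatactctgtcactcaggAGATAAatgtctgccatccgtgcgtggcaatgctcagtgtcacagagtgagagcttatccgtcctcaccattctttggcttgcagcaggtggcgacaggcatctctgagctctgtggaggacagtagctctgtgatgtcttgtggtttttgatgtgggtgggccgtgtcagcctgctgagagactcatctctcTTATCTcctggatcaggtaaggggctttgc
In the Il6 window the capitals are an AP-1 match at -249 to -243, a C/EBP match at -128 to -120 and an NF-kB match at -44 to -35, counted from the start. The NF-kB letters occurred in 0.356% of 32851 windows of the same length, the C/EBP letters in 2.59% and the AP-1 letters in 6.75%. The Il22ra1 window held AP-1 letters at -222 to -216, GATA letters at -204 to -199 and PU.1 letters at -122 to -117, and the Il5ra window AP-1 letters at -99 to -93 and GATA letters at -74 to -69. GATA letters stood at -223 to -218 and at -30 to -25 in the Il9r window, and 9.99% of all windows held them, against 23.3% for PU.1. None of the 7 motifs was found in the Il17rc window, and the STAT and TATA letters, held by 7.02% and 12.4% of all windows, were in none of the 5. A match is a description of letters, and whether any factor binds there was not measured.

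In lavage from ID8-FSHR mice, 14 members were higher and 14 lower than in uninjected mice, a call for 59.6% of the 47 tested members beside 64.5% of all tested genes. In ID8 mice 12 were higher and 18 lower, 63.8% of tested members beside 64.1% of all genes. Between the tumour lines 4 were higher and 3 lower in ID8-FSHR mice, and 11.6% of all genes were called in either direction. Genes for IL-34, IL-6, IL-13 and the p28 and p19 subunits of IL-27 and IL-23 rose in both tumour groups, together with the receptor chains Il22ra1, Il17rc, Il17re, Il17rd and Il13ra1 and the decoy Il13ra2. Receptor chains known from leukocytes, such as Il5ra, Il9r, Il6ra, Il10ra and Il17ra, fell in both. In bulk RNA, fewer cells that carry a transcript, less of it per cell and dilution by tumour RNA cannot be told apart, for these and all other decreases. Calls are adjusted p under 0.05 in edgeR's quasi-likelihood test with Benjamini-Hochberg adjustment over all 16915 genes tested, and every adjusted p below comes from it unless another tool is named.

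These counts were close to those of genes at large. In ID8-FSHR against uninjected mice 29.8% of the 47 tested members were higher and 29.8% lower, where 33.9% and 30.6% of all tested genes were, and the median log2 fold change was 0.01 in members and 0.00 in all genes. In ID8 against uninjected mice 25.5% of tested members were higher and 38.3% lower, beside 32.7% and 31.4% of all tested genes, with a median of -0.31 in members and -0.03 in all genes. Between ID8-FSHR and ID8 mice 8.51% were higher and 6.38% lower, beside 6.04% and 5.56% of all, with a median of 0.29 in members and -0.01 in all. The number of calls is therefore no result about interleukins as a class, and what follows is about which members moved and how. Both comparisons with uninjected mice use the same 4 uninjected libraries, so their values are given side by side and are not independent of each other. The libraries of the groups did not overlap in 48.9% of tested members for ID8-FSHR against uninjected mice, 57.4% for ID8 against uninjected mice and 10.6% for ID8-FSHR against ID8 mice, where 57%, 62.5% and 18.5% of all tested genes did not. Of the tested members, 11 were called higher in both tumour groups and 14 lower in both. The share of all tested genes called in both was not counted, so these counts are no result about interleukins either.

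**Figure D1:**
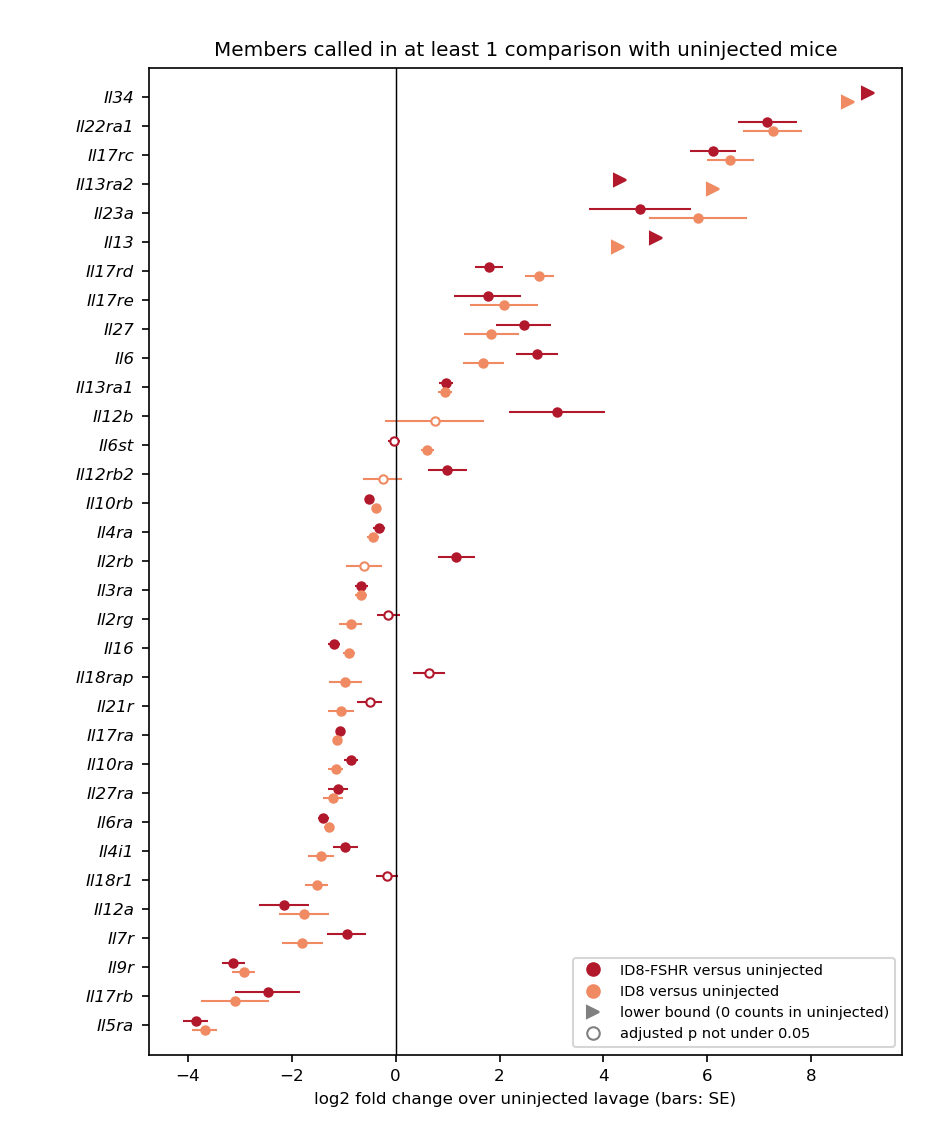
Log2 fold change over uninjected mice, with its standard error, of each member called in at least 1 of the 2 comparisons (ID8-FSHR above ID8 in each row). Filled circles passed an adjusted p of 0.05, open circles did not, and triangles are lower bounds for genes with 0 counts in uninjected mice. Il34 and Il22ra1 lie farthest to the right and Il5ra farthest to the left in both comparisons.

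Among the ligands, Il34, which codes for a second ligand of the CSF-1 receptor of macrophages, had 7.83, 4.67, 7.83 and 12.4 CPM in ID8-FSHR mice, 6.03, 5.78, 6.11 and 7.09 CPM in ID8 mice and 0, 0, 0 and 0 CPM in uninjected mice. Il34 (chr8:110741829-110805924, minus strand, GRCm38) had 0 counts in every uninjected library. Against a floor of 3 counts over the uninjected group, Il34 was at least 547-fold higher in ID8-FSHR mice (adjusted p = 9.52e-08). In ID8 mice Il34 was at least 418-fold higher (adjusted p = 1.26e-07). Since counts are not all single fragments, this floor and all bounds that rest on it are less strict than a floor of 3 fragments. The tumour lines overlapped (log2 fold change 0.39, SE 0.26, adjusted p = 0.357). Il13, a type 2 cytokine, was likewise absent from every uninjected library and had 0.127, 1.13, 0.2 and 0.475 CPM in ID8-FSHR mice and 0.385, 0.665, 0 and 0.123 CPM in ID8 mice. That is at least 32.3-fold in ID8-FSHR mice (adjusted p = 0.00513) and at least 19.6-fold in ID8 mice (adjusted p = 0.0103) over the same floor. In ID8 replicate 3 Il13 had 0 counts, so the ID8 and uninjected groups met at 0. The bounds move with replicate 2 of each tumour group, which holds 57 of the 101 Il13 counts of ID8-FSHR mice and 33 of the 66 of ID8 mice. Without it they are at least 17.8-fold in ID8-FSHR mice and at least 11.3-fold in ID8 mice. Of the 9 markers of group 2 innate lymphoid cells, a source of IL-13, Arg1, also a macrophage gene, made up 71.5 to 98.5% of the summed level in each library. The other 8 summed to 30.9 to 42.7 CPM in the ID8-FSHR libraries, 26.4 to 32.1 CPM in the ID8 libraries and 30.3 to 36.2 CPM in the uninjected libraries, with overlap between ID8-FSHR, ID8 and uninjected libraries. With Arg1 counted, 4 of 7 tested markers were higher and 2 lower in ID8-FSHR mice, and 3 were higher and 2 lower in ID8 mice, than in uninjected mice. Their part in the result on Il13 was not tested.

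Il6, the ligand of the IL-6 receptor, had 8.65, 20.4, 10.4 and 9.13 CPM in the ID8-FSHR libraries, 6.01, 9.09, 2.29 and 6.37 CPM in the ID8 libraries and 2.37, 2.07, 1.49 and 1.42 CPM in the uninjected libraries. Every ID8-FSHR library was above every uninjected one (log2 fold change 2.72, SE 0.40, adjusted p = 5.72e-05), while in the ID8 group replicate 3 fell within the uninjected range (log2 fold change 1.69, SE 0.39, adjusted p = 0.00206). Il6 was highest in ID8-FSHR replicate 2, at 20.4 CPM against 8.65 to 10.4 CPM in the other 3 libraries of its group, and without that library the difference from uninjected mice was 2.45 (adjusted p = 5.54e-05). Between ID8-FSHR and ID8 mice Il6 had a log2 fold change of 1.03, SE 0.37, adjusted p = 0.0908, which did not pass, with an adjusted p of 0.0277 in DESeq2 and 0.0456 with replicate numbers as a block.

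Il27, which codes for the p28 subunit of IL-27, had 0.949, 2.8, 1.56 and 2.77 CPM in ID8-FSHR mice, 1.95, 1.85, 0.617 and 0.788 CPM in ID8 mice and 0.178, 0.406, 0.222 and 0.653 CPM in uninjected mice. Il27 was higher in ID8-FSHR mice (log2 fold change 2.47, SE 0.53, adjusted p = 0.0012). In ID8 mice Il27 was higher as well (log2 fold change 1.84, SE 0.53, adjusted p = 0.00799), and ID8 libraries overlapped the uninjected range. Ebi3, the other subunit of IL-27, ran the opposite way, with 5.88, 12.4, 11 and 5.31 CPM in ID8-FSHR mice, 4.68, 4.17, 4.56 and 4.1 CPM in ID8 mice and 13.9, 11.3, 13.2 and 13.3 CPM in uninjected mice. Ebi3 was lower in ID8-FSHR mice (log2 fold change -0.58, SE 0.23, adjusted p = 0.0425, ranges overlapping) and in ID8 mice (-1.56, SE 0.24, adjusted p = 8.25e-05). Of the exons of Il27, 10.1% overlap Apobr on the other strand, and the strand setting of the counting is not given.

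The IL-12 and IL-23 subunits moved in different directions. Il12a, the p35 subunit of IL-12, averaged 0.366 ± 0.19 CPM in ID8-FSHR mice, 0.478 ± 0.314 CPM in ID8 mice and 1.65 ± 0.536 CPM in uninjected mice (SD, n = 4 each). Il12a was lower in both tumour groups, by 4.45-fold (adjusted p = 0.00171) and 3.4-fold (adjusted p = 0.00548). Il23a, the p19 subunit of IL-23, had 74 counts in ID8-FSHR mice, 157 in ID8 mice and 2 in uninjected mice. The ratio of these summed counts to uninjected mice, scaled by library size, was 34.0 in ID8-FSHR mice (95% counting interval 9.08 to 286). In ID8 mice this ratio was 70.0 (19.1 to 583). Both intervals cover counting error only and leave out the spread between mice. The edgeR fit gave 26.2-fold in ID8-FSHR mice (log2 fold change 4.71, SE 0.98, adjusted p = 0.00095). In ID8 mice it gave 56.7-fold (log2 fold change 5.82, SE 0.95, adjusted p = 0.00014). ID8-FSHR replicate 1 holds 45 of the 74 counts, at 0.712 CPM against 0.146 to 0.239 CPM in the other 3 ID8-FSHR libraries, and without it the ratio is 18.7. Il12b, the p40 subunit that IL-12 and IL-23 share, had 0.127, 1.95, 1.34 and 1.68 CPM in the ID8-FSHR libraries, 0.281, 0.242, 0.319 and 0.14 CPM in the ID8 libraries and 0.0197, 0, 0.182 and 0.392 CPM in the uninjected libraries. Il12b was higher in ID8-FSHR than in uninjected mice (log2 fold change 3.11, SE 0.93, adjusted p = 0.0102), although ID8-FSHR replicate 1 lay within the uninjected range. In ID8 mice it did not pass (log2 fold change 0.75, SE 0.95, adjusted p = 0.507), nor did the difference between the tumour lines (log2 fold change 2.36, SE 0.87, adjusted p = 0.0976), which had an adjusted p of 0.026 without ID8-FSHR replicate 1 and 0.0379 in DESeq2.

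Il16, which codes for the precursor of a T cell chemoattractant, had 69.6, 62.5, 72.5 and 72.2 CPM in ID8-FSHR mice, 83.7, 65.5, 99.6 and 90.9 CPM in ID8 mice and 147, 147, 171 and 168 CPM in uninjected mice. All tumour libraries were below all uninjected ones, in ID8-FSHR mice (log2 fold change -1.19, SE 0.11, adjusted p = 1.08e-06) and in ID8 mice (log2 fold change -0.90, SE 0.11, adjusted p = 1.37e-05). Exons of Il16 overlap those of Stard5 on the opposite strand over 15.3% of their length, and the strand setting is not given. The remaining 6 tested ligands were called in no comparison. Il15, which sustains NK cells, averaged 6.31 ± 1.8 CPM in ID8-FSHR mice, 5.26 ± 0.504 CPM in ID8 mice and 6.26 ± 0.577 CPM in uninjected mice, and Il7, which sustains lymphocytes, 2.77 ± 1.42, 2.26 ± 0.234 and 1.46 ± 0.459 CPM in the same order of groups. Il7 against uninjected mice had an adjusted p of 0.0538 in ID8-FSHR mice, and of 0.0236 in DESeq2. Il10, an inhibitory cytokine, averaged 0.845 ± 0.356 CPM in ID8-FSHR mice, 0.494 ± 0.24 CPM in ID8 mice and 0.667 ± 0.316 CPM in uninjected mice. Il4, the founding type 2 cytokine, was at most 0.477 CPM in any library, Il5, the B-1 cell and eosinophil cytokine, at most 0.847 CPM and Il1f9, which codes for IL-36 gamma, at most 2.1 CPM.

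**Figure D2:**
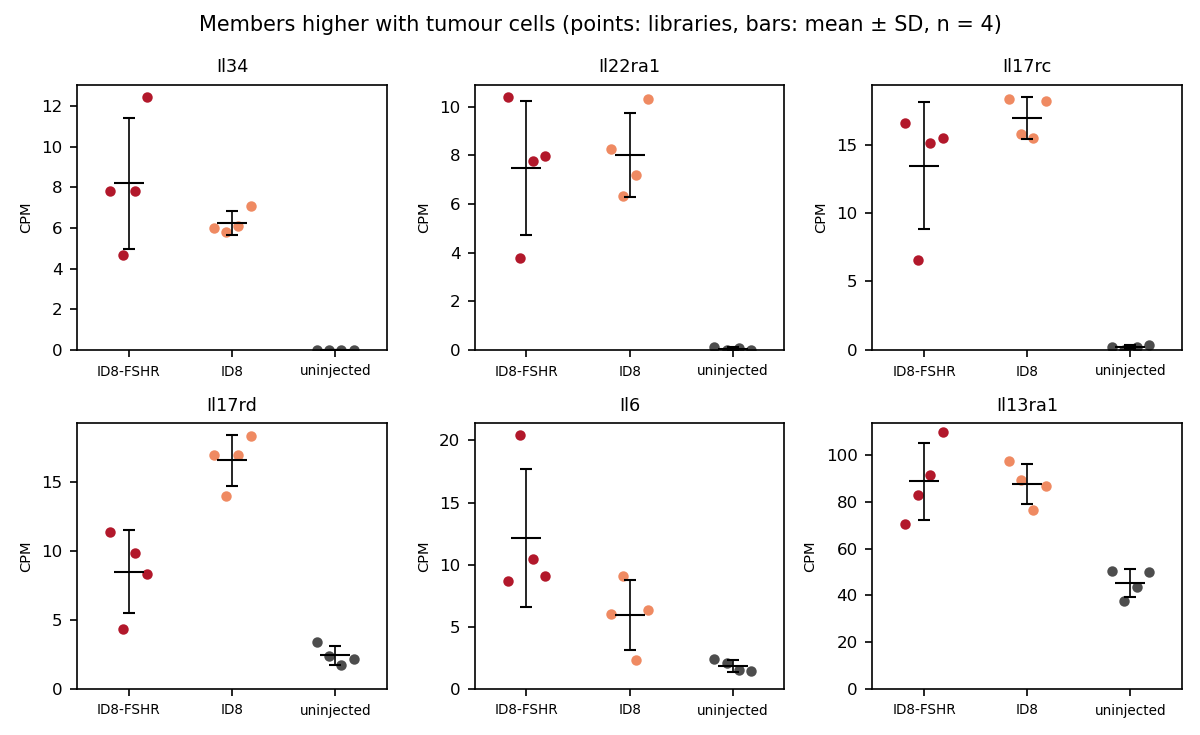
CPM of 6 members that were higher in both tumour groups than in uninjected mice, by library (points), with mean ± SD of 4 libraries per group. Il34 is at 0 in all 4 uninjected libraries, Il6 is highest in ID8-FSHR replicate 2 at 20.4 CPM, and Il17rc is lowest among tumour libraries in the same replicate at 6.54 CPM.

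The chains of the IL-6 receptor differed from each other. Il6ra, the ligand-binding chain, had 118, 153, 124 and 103 CPM in the ID8-FSHR libraries, 125, 140.4, 142 and 129 CPM in the ID8 libraries and 343, 337, 315 and 310.1 CPM in the uninjected libraries. Il6ra was 2.62-fold lower in ID8-FSHR mice (log2 fold change -1.39, SE 0.10, adjusted p = 1.4e-07). In ID8 mice Il6ra was 2.44-fold lower (log2 fold change -1.29, SE 0.10, adjusted p = 2.7e-07), with no overlap. Il6st codes for gp130, the signalling chain shared by IL-6, IL-11, LIF and oncostatin M, and had 350.1, 208, 318 and 315 CPM in the ID8-FSHR libraries, 459, 454, 460.1 and 489 CPM in the ID8 libraries and 297, 313, 306 and 303 CPM in the uninjected libraries. The 4 ID8 libraries stood above all others (log2 fold change 0.61, SE 0.12, adjusted p = 0.000737, against uninjected mice). The ID8-FSHR mice did not pass (log2 fold change -0.03, SE 0.12, adjusted p = 0.826), but this rests on replicate 2, without which the log2 fold change was 0.21 (adjusted p = 0.00726), and the sign was also positive with DESeq2 and with median-of-ratios scaling.

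Il27ra, the specific chain of the IL-27 receptor, had 23.4, 37.4, 22.0 and 16.7 CPM in ID8-FSHR mice, 22.5, 22.7, 21.3 and 26.0 CPM in ID8 mice and 47.2, 58.9, 53.8 and 54.6 CPM in uninjected mice. Il27ra was lower in ID8-FSHR mice (log2 fold change -1.11, SE 0.19, adjusted p = 0.000198). In ID8 mice Il27ra was lower as well (log2 fold change -1.21, SE 0.19, adjusted p = 9.43e-05) without overlap. Il11ra1, the IL-11 receptor chain, averaged 13.0 ± 0.832 CPM in ID8-FSHR mice, 15.2 ± 2.25 CPM in ID8 mice and 13.6 ± 2.09 CPM in uninjected mice and was not called. Its near-identical copy Il11ra2 had 0 counts, so how reads were split between the copies is uncertain. Il31ra, which pairs with the oncostatin M receptor chain, averaged 0.291 ± 0.0926 CPM in ID8-FSHR mice, 0.267 ± 0.113 CPM in ID8 mice and 0.297 ± 0.103 CPM in uninjected mice and was not called. Osmr, the oncostatin M receptor chain and no member itself, had 42.5, 33.0, 45.2 and 67.3 CPM in ID8-FSHR mice, 103, 87.4, 62.8 and 98.6 CPM in ID8 mice and 0, 0.0738, 0.0404 and 0.0436 CPM in uninjected mice. Osmr was higher in both tumour groups (adjusted p = 1.65e-09 in ID8-FSHR mice and 1.09e-09 in ID8 mice). It was also lower in ID8-FSHR than in ID8 mice (log2 fold change -0.91, SE 0.21, adjusted p = 0.0177).

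The IL-17 receptor family split. Il17ra, the chain shared by most IL-17 receptors, had 57.4, 67.4, 68.4 and 72.5 CPM in the ID8-FSHR libraries, 67.0, 58.8, 67.3 and 61.6 CPM in the ID8 libraries and 127, 152, 139 and 140.3 CPM in the uninjected libraries. Il17ra was lower in ID8-FSHR mice (log2 fold change -1.07, SE 0.08, adjusted p = 1.88e-07). In ID8 mice Il17ra was lower as well (log2 fold change -1.13, SE 0.08, adjusted p = 1.11e-07), each below every uninjected library. Il17rc, its partner in the receptor for IL-17A and IL-17F, had 16.6, 6.54, 15.1 and 15.5 CPM in the ID8-FSHR libraries, 18.3, 15.8, 15.5 and 18.2 CPM in the ID8 libraries and 0.197, 0.0184, 0.202 and 0.37 CPM in the uninjected libraries. Il17rc was 69.3-fold higher in ID8-FSHR mice (log2 fold change 6.12, SE 0.45, adjusted p = 1.11e-07). In ID8 mice Il17rc was 87.3-fold higher (log2 fold change 6.45, SE 0.45, adjusted p = 7.1e-08), and the lowest tumour library was ID8-FSHR replicate 2. Il17rd, a family member also known as a brake on growth factor signalling, had 11.3, 4.36, 9.84 and 8.31 CPM in the ID8-FSHR libraries, 16.9, 13.9, 16.9 and 18.3 CPM in the ID8 libraries and 3.37, 2.42, 1.72 and 2.18 CPM in the uninjected libraries. Il17rd was higher in ID8-FSHR mice (log2 fold change 1.80, SE 0.27, adjusted p = 6.85e-05). In ID8 mice Il17rd was higher as well (log2 fold change 2.77, SE 0.28, adjusted p = 1.82e-06), with 3 separate ranges for the 3 groups.

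Il17re, the chain of the IL-17C receptor, averaged 0.865 ± 0.35 CPM in ID8-FSHR mice, 1.08 ± 0.207 CPM in ID8 mice and 0.253 ± 0.206 CPM in uninjected mice. Il17re was higher in ID8-FSHR mice (log2 fold change 1.77, SE 0.65, adjusted p = 0.0286). In ID8 mice Il17re was higher as well (log2 fold change 2.09, SE 0.65, adjusted p = 0.0127). In ID8-FSHR mice the call did not survive leaving out replicate 1 (adjusted p = 0.0777) or replicate 3 (0.0518) of that group or uninjected replicate 4 (0.068), or fitting only these 2 groups (0.0687). Il17re and Il17rc are neighbours on chromosome 6, at 113458484 to 113470758 and at 113471427 to 113483140 on the plus strand of GRCm38, 0.668 kb apart. Il17rb, the chain of the IL-25 receptor, was lower in both tumour groups, with 0.233 ± 0.135 CPM in ID8-FSHR mice (adjusted p = 0.00376) and 0.149 ± 0.159 CPM in ID8 mice (adjusted p = 0.00103), against 1.3 ± 0.49 CPM in uninjected mice. The ligands of these receptors were near 0. Il17a, Il17b and Il25 had 0 counts in all 12 libraries, Il17f had 14, 12 and 8 counts over the ID8-FSHR, ID8 and uninjected groups, and Il17c had 0, 6 and 2.

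In the IL-10 and IL-22 receptor group, Il10ra, the specific IL-10 receptor chain, had 75.2, 133, 101 and 124 CPM in the ID8-FSHR libraries, 89.9, 90.1, 95.3 and 78.6 CPM in the ID8 libraries and 188, 188, 199 and 211 CPM in the uninjected libraries. Il10ra was lower in ID8-FSHR mice (log2 fold change -0.86, SE 0.14, adjusted p = 0.000142). In ID8 mice Il10ra was lower as well (log2 fold change -1.15, SE 0.14, adjusted p = 1.19e-05), with no overlap. Il10rb, the chain shared by the receptors for IL-10, IL-22 and interferon lambda, had 80.6, 83.9, 76.2 and 72.8 CPM in ID8-FSHR mice, 88.0, 82.1, 95.6 and 81.8 CPM in ID8 mice and 123, 109, 103 and 114 CPM in uninjected mice. Its decrease was smaller, without overlap, in ID8-FSHR mice (log2 fold change -0.52, SE 0.08, adjusted p = 4.81e-05) and in ID8 mice (log2 fold change -0.37, SE 0.07, adjusted p = 0.000749). Exons of Il10rb overlap those of Gm21970 over 14.9% of their length. Il22ra1, the specific chain of the IL-22 receptor, which epithelial cells are known to carry and leukocytes to lack, had 10.4, 3.76, 7.77 and 7.96 CPM in the ID8-FSHR libraries, 8.25, 6.31, 7.21 and 10.3 CPM in the ID8 libraries and 0.118, 0, 0.0808 and 0 CPM in the uninjected libraries. With 10 counts over the whole uninjected group, it was 143-fold higher in ID8-FSHR mice (log2 fold change 7.16, SE 0.57, adjusted p = 2.2e-07) and 153-fold higher in ID8 mice (log2 fold change 7.26, SE 0.57, adjusted p = 1.88e-07). Its ligand Il22 had 0 counts in all 12 libraries. Il20rb, a chain of the IL-20 receptor, lay between 1.23 and 3.9 CPM across the libraries and was called in no comparison.

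The IL-4 and IL-13 receptors also split. Il4ra, the chain that both cytokines use, had 88.5, 135, 99.1 and 116 CPM in ID8-FSHR mice, 111, 101, 89.0 and 107 CPM in ID8 mice and 127, 141, 145 and 139 CPM in uninjected mice. Il4ra was lower in ID8-FSHR mice (log2 fold change -0.33, SE 0.12, adjusted p = 0.0234), where replicate 2 overlapped the uninjected range. In ID8 mice Il4ra was lower as well (log2 fold change -0.44, SE 0.12, adjusted p = 0.00502). The adjusted p in ID8-FSHR mice exceeded the threshold without replicate 1 of that group (0.0675) or replicate 3 (0.0728), so that the call was lost, and likewise without uninjected replicate 2 (0.0509) or replicate 3 (0.0591). Il13ra1, which with Il4ra forms the receptor that binds IL-4 and IL-13 outside the lymphoid lineage, had 70.5, 82.8, 91.6 and 109.8 CPM in the ID8-FSHR libraries, 97.3, 89.4, 76.7 and 86.8 CPM in the ID8 libraries and 50.3, 37.5, 43.6 and 50.1 CPM in the uninjected libraries. Il13ra1 was 1.95-fold higher in ID8-FSHR mice (log2 fold change 0.97, SE 0.13, adjusted p = 3.38e-05). In ID8 mice Il13ra1 was 1.93-fold higher (log2 fold change 0.95, SE 0.13, adjusted p = 3.98e-05), without overlap. Il13ra2, a decoy that binds IL-13 and removes it, was absent from all 4 uninjected libraries and had 0.364, 0.537, 0.12 and 0.183 CPM in ID8-FSHR mice and 1.17, 1.09, 0.797 and 1.09 CPM in ID8 mice. These levels are at least 20.1-fold (adjusted p = 0.000126) and at least 69.1-fold (adjusted p = 1.34e-05) above the floor.

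Il4i1, an amino acid oxidase induced by IL-4, had 2.25, 4.58, 2.78 and 2.81 CPM in ID8-FSHR mice, 2.59, 2.24, 2.19 and 1.94 CPM in ID8 mice and 4.6, 7.01, 4.89 and 7.86 CPM in uninjected mice. Il4i1 was lower in ID8-FSHR mice (log2 fold change -0.97, SE 0.24, adjusted p = 0.00334). In ID8 mice Il4i1 was lower as well (log2 fold change -1.44, SE 0.25, adjusted p = 0.000198), and ID8-FSHR replicate 2 almost reached the lowest uninjected library. Its merged exons overlap those of Tbc1d17 on the opposite strand over 83.9% of their length, and since the strand setting is not given, reads of the 2 genes cannot be told apart and the values of Il4i1 are uncertain.

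Receptors of the common beta and common gamma chain groups held large decreases. Il5ra, the specific chain of the IL-5 receptor, had 5.23, 8.14, 4.63 and 3.67 CPM in the ID8-FSHR libraries, 6.65, 4.29, 5.56 and 7.84 CPM in the ID8 libraries and 73.8, 69.8, 78.8 and 90.8 CPM in the uninjected libraries. Il5ra was 14.5-fold lower in ID8-FSHR mice (log2 fold change -3.85, SE 0.24, adjusted p = 2.91e-08) and 12.8-fold lower in ID8 mice (log2 fold change -3.68, SE 0.24, adjusted p = 3.75e-08). Il9r, the specific chain of the IL-9 receptor, had 5.69, 7.92, 7.65 and 4.6 CPM in the ID8-FSHR libraries, 7.34, 5.16, 9.54 and 7.67 CPM in the ID8 libraries and 56.1, 42.5, 55.9 and 71.2 CPM in the uninjected libraries. Il9r was 8.74-fold lower in ID8-FSHR mice (log2 fold change -3.13, SE 0.23, adjusted p = 9.67e-08) and 7.59-fold lower in ID8 mice (log2 fold change -2.92, SE 0.22, adjusted p = 1.52e-07). In both genes the tumour libraries lay far below the uninjected libraries and the tumour groups overlapped each other. Il3ra, the IL-3 receptor chain, had 12.7, 13.8, 11.5 and 9.75 CPM in ID8-FSHR mice, 10.7, 12.5, 13.4 and 11.1 CPM in ID8 mice and 19.7, 20.9, 17.3 and 17.5 CPM in uninjected mice. Its decrease was smaller, also without overlap, in ID8-FSHR mice (log2 fold change -0.66, SE 0.12, adjusted p = 0.000348) and in ID8 mice (log2 fold change -0.66, SE 0.12, adjusted p = 0.000333). Csf2rb, the common beta chain that Il5ra and Il3ra need and no member itself, averaged 245 ± 76.1 CPM in ID8-FSHR mice (log2 fold change -0.32, SE 0.19, adjusted p = 0.166) and 168 ± 34.1 CPM in ID8 mice (log2 fold change -0.86, SE 0.19, adjusted p = 0.0017), against 305 ± 32.7 CPM in uninjected mice.

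The summed level of 12 B cell markers moved with Il5ra and Il9r, at 359 to 639 CPM in the ID8-FSHR libraries, 414 to 601 CPM in the ID8 libraries and 3179 to 4209 CPM in the uninjected libraries. All 12 markers were lower in both tumour groups, and the defining markers Ms4a1, Cd79a and Pax5 were at 0 in no library. A list of 10 B-1 cell markers summed to 204 to 349.8 CPM in the ID8-FSHR libraries, 214 to 285 CPM in the ID8 libraries and 693 to 807 CPM in the uninjected libraries, with 7 of 10 lower in ID8-FSHR mice and 9 of 10 in ID8 mice. Eosinophils and mast cells can carry Il5ra, Il9r and Il3ra too. Of 7 eosinophil markers, 3 were tested, with 1, Ear2, lower in ID8-FSHR mice and 0 lower in ID8 mice. The 7 summed to 15.1 to 43.7 CPM in the ID8-FSHR libraries, 19.8 to 31.9 CPM in the ID8 libraries and 16.5 to 36.7 CPM in the uninjected libraries. Ear2 made up 36.2 to 83.2% of this sum. The other 6 summed to 4.83 to 27.9 CPM in the ID8-FSHR libraries, 4.10 to 10.7 CPM in the ID8 libraries and 5.07 to 11.6 CPM in the uninjected libraries. Of the defining eosinophil markers, Prg2 was at 0 in 1 ID8 and 3 uninjected libraries and at most 0.365 CPM elsewhere. Epx was at 0 in 3 ID8-FSHR, 1 ID8 and 4 uninjected libraries. Ccr3, also a defining marker, was present in every library, at 2.83 to 18.1 CPM. Of 11 mast cell markers, 8 were lower and 1 higher in ID8-FSHR mice, and 7 lower and 1 higher in ID8 mice, with sums of 601 to 949 CPM in the ID8-FSHR libraries, 839 to 1060.5 CPM in the ID8 libraries and 968 to 1522 CPM in the uninjected libraries. The part of any of these in the results on Il5ra, Il9r and Il3ra was not tested.

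Il7r, the specific chain of the IL-7 receptor of lymphocytes, had 26.4, 31.8, 13.8 and 22.4 CPM in ID8-FSHR mice, 13.5, 12.1, 14.9 and 11.8 CPM in ID8 mice and 17.6, 85.0, 48.5 and 30.7 CPM in uninjected mice. The uninjected libraries were widely spread, and uninjected replicate 1 was below 3 of the 4 ID8-FSHR libraries. Il7r was lower in ID8 mice (log2 fold change -1.80, SE 0.39, adjusted p = 0.00131) without overlap. In ID8-FSHR mice Il7r was lower too (log2 fold change -0.95, SE 0.38, adjusted p = 0.0435), but that call rests on single libraries. The adjusted p was 0.0819 without ID8-FSHR replicate 2 and 0.228 without uninjected replicate 2, when the log2 fold change was -0.45, and the call was also lost without each of 8 other libraries and with DESeq2 (0.0668) or limma-voom (0.102).

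Il21r, the specific chain of the IL-21 receptor, had 11.7, 30.1, 14.5 and 19.5 CPM in the ID8-FSHR libraries, 16.1, 10.9, 12.3 and 12.4 CPM in the ID8 libraries and 20.4, 29.8, 27.6 and 29.6 CPM in the uninjected libraries. Il21r was lower in ID8 mice (log2 fold change -1.05, SE 0.25, adjusted p = 0.0023). It did not pass in ID8-FSHR mice (log2 fold change -0.50, SE 0.24, adjusted p = 0.0889). There replicate 2 lay above all uninjected libraries, and without it the log2 fold change was -0.71 (adjusted p = 0.00534). Il2rg is the common gamma chain itself, without which the receptors for IL-2, IL-4, IL-7, IL-9, IL-15 and IL-21 do not signal in lymphocytes. It had 53.3, 127, 80.2 and 102 CPM in the ID8-FSHR libraries, 63.3, 65.8, 39.2 and 51.9 CPM in the ID8 libraries and 90.6, 97, 107 and 106 CPM in the uninjected libraries. Il2rg was lower in ID8 mice (log2 fold change -0.86, SE 0.22, adjusted p = 0.00438), with no overlap. It was not called in ID8-FSHR mice (log2 fold change -0.14, SE 0.22, adjusted p = 0.592), whose libraries spanned the uninjected range. For Il2rg the difference between ID8-FSHR and ID8 mice had an adjusted p of 0.0551 (log2 fold change 0.72, SE 0.22), and 0.0119 in DESeq2. Exons of Il2rg overlap those of Gm20489 on the same strand over 30.5% of their length.

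**Figure D3:**
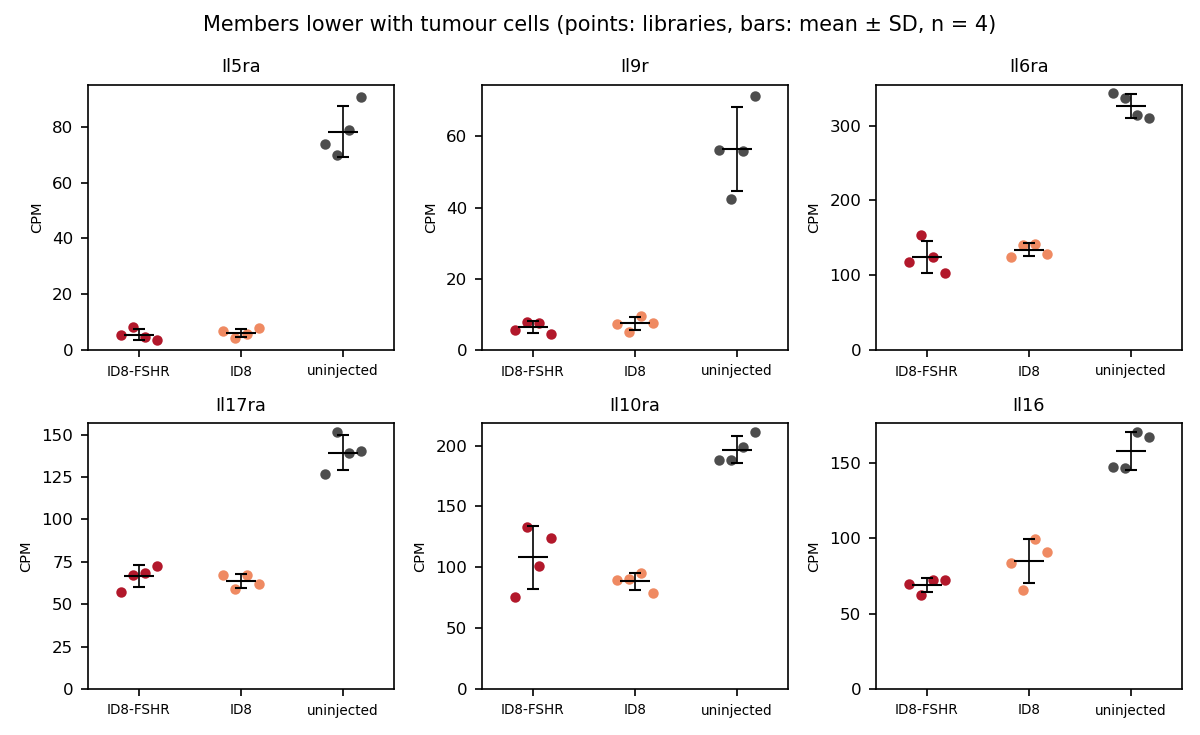
CPM of 6 members that were lower in both tumour groups than in uninjected mice, by library (points), with mean ± SD of 4 libraries per group. In each panel every tumour library lies below every uninjected library, with the widest relative gap in Il5ra and Il9r.

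Between the tumour lines, 4 of 31 tested receptor chains were called higher in ID8-FSHR mice, beside 6.04% of all tested genes. They were Il2rb, Il18r1, Il18rap and Il12rb2. Il2rb, the beta chain that binds IL-2 and IL-15, had 25.8, 97.4, 49.5 and 96.2 CPM in the ID8-FSHR libraries, 27.2, 20.2, 13.9 and 17.3 CPM in the ID8 libraries and 25.3, 25.1, 33.7 and 35.2 CPM in the uninjected libraries. Il2rb was 3.42-fold higher in ID8-FSHR than in ID8 mice (log2 fold change 1.77, SE 0.35, adjusted p = 0.00728). Against uninjected mice Il2rb was 2.25-fold higher (log2 fold change 1.17, SE 0.35, adjusted p = 0.01). Within the group, ID8-FSHR replicate 1, at 25.8 CPM, lay among the ID8 and the uninjected libraries. In ID8 against uninjected mice it did not pass (log2 fold change -0.60, SE 0.35, adjusted p = 0.146).

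The chains of the IL-18 receptor had a like order of libraries. Il18r1, the binding chain, had 8.6, 19.3, 11.3 and 17.8 CPM in the ID8-FSHR libraries, 6.47, 5.91, 5.08 and 4.74 CPM in the ID8 libraries and 13.3, 17.9, 17.2 and 15.5 CPM in the uninjected libraries. Il18rap, the accessory chain, had 8.16, 27.6, 14.6 and 27.3 CPM in the ID8-FSHR libraries, 7.39, 4.84, 5.44 and 7.49 CPM in the ID8 libraries and 10.5, 13.2, 13.3 and 12.4 CPM in the uninjected libraries. The 4 ID8 libraries were below all others in both genes. Il18r1 was 2.56-fold higher in ID8-FSHR than in ID8 mice (log2 fold change 1.36, SE 0.23, adjusted p = 0.00225). Il18rap was 3.08-fold higher (log2 fold change 1.62, SE 0.32, adjusted p = 0.00635). Against uninjected mice, both were lower in ID8 mice (Il18r1 -1.52, SE 0.23, adjusted p = 6.64e-05; Il18rap -0.97, SE 0.31, adjusted p = 0.0157), and the Il18rap call had an adjusted p of 0.0573 in limma-voom. In ID8-FSHR against uninjected mice neither passed (adjusted p = 0.524 for Il18r1 and 0.0821 for Il18rap), and Il18rap had an adjusted p of 0.0412 in DESeq2 and 0.00308 without ID8-FSHR replicate 1. The 2 genes are neighbours on chromosome 1, at 40465552 to 40500854 and 40515362 to 40551705 on the plus strand, 14.5 kb apart.

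Il12rb2, the signalling chain of the IL-12 receptor, had 2.78, 7.52, 5.61 and 11.1 CPM in the ID8-FSHR libraries, 3.64, 3.79, 1.47 and 2.45 CPM in the ID8 libraries and 3.31, 2.88, 3.23 and 4.14 CPM in the uninjected libraries. Il12rb2 was higher in ID8-FSHR than in ID8 mice (log2 fold change 1.25, SE 0.38, adjusted p = 0.0499). Against uninjected mice Il12rb2 was higher too (log2 fold change 1.00, SE 0.37, adjusted p = 0.033), with ID8-FSHR replicate 1 below all uninjected libraries. These calls are not firm. Against ID8 mice the call was lost without any single library other than ID8-FSHR replicate 1, with adjusted p from 0.0536 to 0.151. Against uninjected mice it was lost without ID8-FSHR replicate 4 (0.136) or any of uninjected replicates 1, 2 and 3 (0.0674, 0.0778 and 0.0681). Its exons overlap those of Serbp1 on the opposite strand over 40.0% of their length. Il12rb1, the partner chain, had 0.316, 4.12, 3.05 and 6.26 CPM in ID8-FSHR mice, 1.42, 1.05, 0.478 and 1.07 CPM in ID8 mice and 1.07, 1.03, 1.25 and 1.66 CPM in uninjected mice. Il12rb1 did not pass against ID8 mice (adjusted p = 0.0802) or against uninjected mice (0.0503), with 0.0164 and 0.0169 in DESeq2. Il2ra, the high-affinity IL-2 receptor chain, averaged 15.2 ± 5.6 CPM in ID8-FSHR mice, 7.35 ± 2.27 CPM in ID8 mice and 10.7 ± 3.56 CPM in uninjected mice, with an adjusted p of 0.0502 between the tumour lines and 0.00687 in DESeq2.

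Between the tumour lines, markers of NK cells moved in the same direction as Il2rb, Il18r1, Il18rap and Il12rb2. Against uninjected mice NK cell markers did not move with Il18r1 and Il18rap, which were lower in ID8 mice while 0 NK cell markers were. The 11 NK cell markers summed to 39.8, 213, 111 and 277 CPM in the ID8-FSHR libraries, 60.1, 27.1, 20.7 and 33.0 CPM in the ID8 libraries and 33.6, 31.7, 37.2 and 48.9 CPM in the uninjected libraries. All 11 were higher in ID8-FSHR than in ID8 mice, 10 were higher in ID8-FSHR than in uninjected mice, and 1, Gzmb, was higher in ID8 than in uninjected mice. The defining markers Ncr1 and Klrb1c were at 0 in no library. Replicate 1 had the lowest and replicate 4 the highest sum among the ID8-FSHR libraries, the same lowest library as for Il2rb, Il18r1, Il18rap, Il12rb2 and Il12rb1. The 14 T cell markers summed to 76.7 to 165 CPM in the ID8-FSHR libraries, 49.1 to 58.4 CPM in the ID8 libraries and 66.2 to 187 CPM in the uninjected libraries, with 8 higher in ID8-FSHR than in ID8 mice and 13 lower in ID8 than in uninjected mice. The part of NK and T cell numbers in the results on these receptors was not tested. Without ID8-FSHR replicate 2, Il2rb had a log2 fold change of 1.56 over ID8 mice (adjusted p = 0.0387), Il18r1 1.20 (0.00352) and Il18rap 1.43 (0.0195), whereas Il12rb2 no longer passed (1.22, adjusted p = 0.0906).

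**Figure D4:**
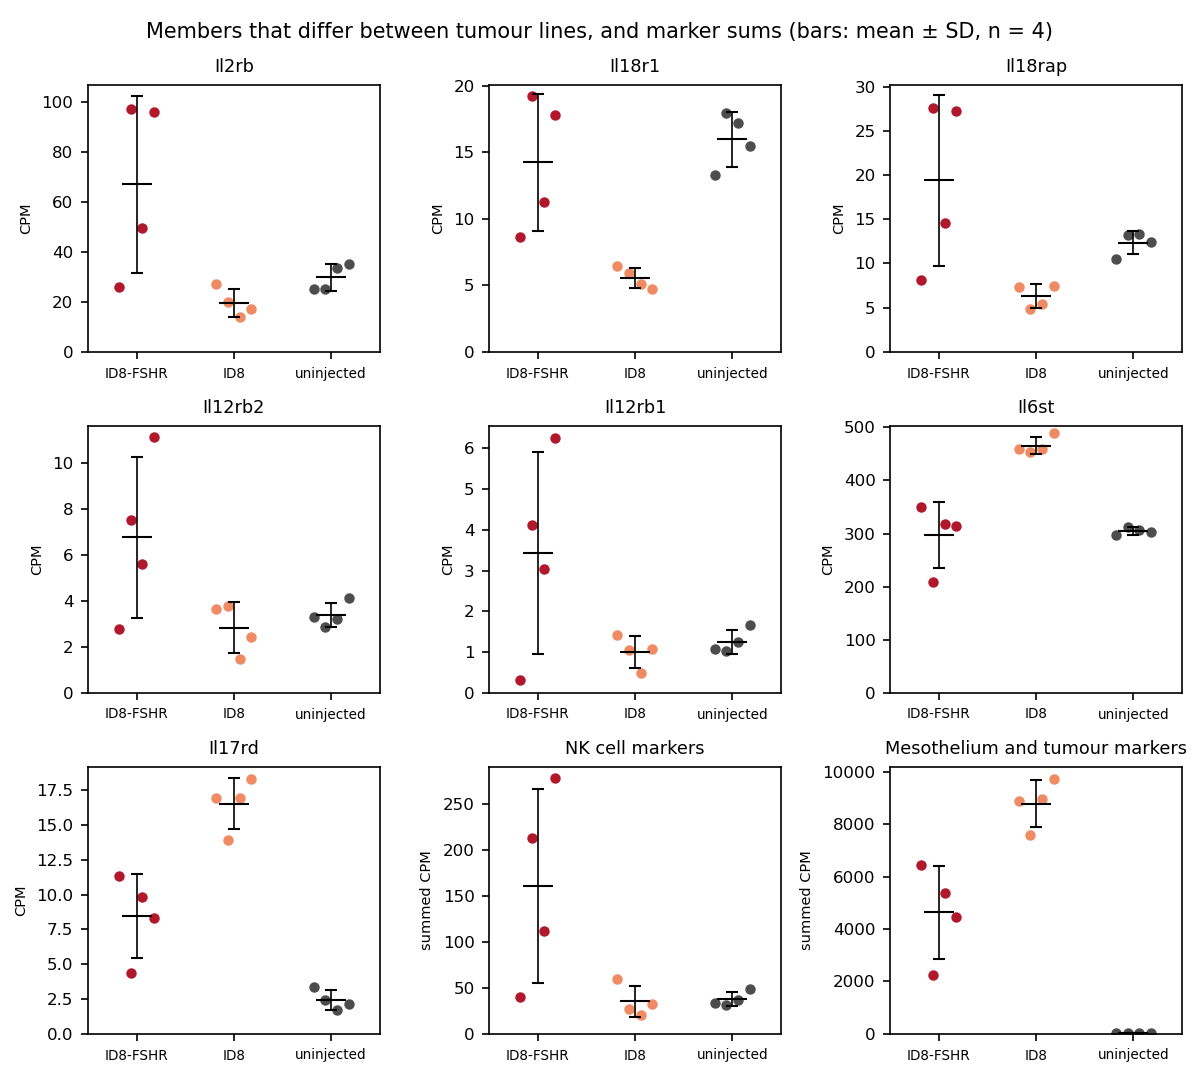
CPM by library of 7 receptor chains that differed, or had wide ranges, between the tumour lines, and the summed CPM of 11 NK cell markers and 13 mesothelium and tumour markers, with mean ± SD of 4 libraries per group. ID8-FSHR replicate 1 is the lowest ID8-FSHR point for Il2rb and the NK cell sum (39.8 CPM), and replicate 2 the lowest for Il6st and the tumour marker sum (2260.2 CPM).

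The members that were lower in ID8-FSHR than in ID8 mice were Il6st, Il17rd and the decoy Il13ra2, whose values stand above. Il6st was 1.56-fold lower (log2 fold change -0.65, SE 0.12, adjusted p = 0.00537), Il17rd 1.95-fold lower (log2 fold change -0.96, SE 0.26, adjusted p = 0.0304) and Il13ra2 3.42-fold lower (log2 fold change -1.77, SE 0.47, adjusted p = 0.0408), each without overlap. The Il17rd call was lost without ID8 replicate 1, 3 or 4 or ID8-FSHR replicate 4 (adjusted p 0.0699 to 0.089), and the Il13ra2 call without any single ID8 library or ID8-FSHR replicate 3 or 4 (0.0728 to 0.106). Without ID8-FSHR replicate 2 the log2 fold changes were -0.49 for Il6st (adjusted p = 0.000219), -0.73 for Il17rd (0.0273) and -2.18 for Il13ra2 (0.0228).

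The markers of mesothelium and ID8 tumour cells were also lower in sum in ID8-FSHR than in ID8 mice and higher in both than in uninjected mice. These 13 markers summed to 6452, 2260.2, 5362 and 4468 CPM in the ID8-FSHR libraries, 8903, 7575, 8959 and 9718 CPM in the ID8 libraries and 24.2, 23.8, 21.6 and 26.4 CPM in the uninjected libraries, with 11 of 13 higher in ID8-FSHR mice and 12 of 13 in ID8 mice than in uninjected mice, and 5 of 13 lower in ID8-FSHR than in ID8 mice. Within the ID8-FSHR group, replicate 2 had the lowest sum and the lowest Il6st, Il17rd, Il17rc, Il22ra1 and Il34, but the highest Il6, Il13, Il27 and Il13ra2. The defining markers Wt1, Msln and Krt19 were at 0 in no library, and at most 2.40 CPM in any uninjected library. Of 9 fibroblast markers 7 were tested, 5 and 6 of them higher in ID8-FSHR and in ID8 mice than in uninjected mice. Dcn made up most of their sum in every tumour library, and the other 8 markers summed to 33.9 to 86.4 CPM in the ID8-FSHR libraries, 46.0 to 109 CPM in the ID8 libraries and 25.4 to 38.3 CPM in the uninjected libraries. The part of tumour, mesothelial or stromal RNA in the results on these members was not tested. Macrophage markers moved with the decreases in Il6ra, Il10ra and Il17ra. Markers of large peritoneal macrophages summed to 6386 to 12024 CPM in the ID8-FSHR libraries, 9642 to 12434 CPM in the ID8 libraries and 22063 to 26849.5 CPM in the uninjected libraries, with 11 and 12 of 13 lower in ID8-FSHR and in ID8 mice than in uninjected mice and Gata6 higher in both. Of 12 markers of monocytes and small macrophages, 5 were lower and 2 higher in ID8-FSHR mice and 8 lower in ID8 mice. One of them, Fn1, made up 92 to 97.1% of their sum in each library. The other 11 summed to 646 to 1817 CPM in the ID8-FSHR libraries, 702 to 919.7 CPM in the ID8 libraries and 1351 to 1975 CPM in the uninjected libraries, and ID8-FSHR and uninjected libraries overlapped. Of 9 dendritic cell markers 4 were lower and 1 higher in each tumour group, of 11 neutrophil markers 1 was lower and 1 higher in each, and of 6 tested plasma cell markers 3 were lower and 1 higher in ID8-FSHR mice and 4 lower and 2 higher in ID8 mice. Dendritic cell markers summed to 69.4 to 112 CPM in the ID8-FSHR libraries, 75.1 to 92.9 CPM in the ID8 libraries and 116 to 147 CPM in the uninjected libraries. Csf3r made up 43.2 to 96.6% of the neutrophil sum, and the other 10 neutrophil markers summed to 15.8 to 56.9 CPM in the ID8-FSHR libraries, 14.6 to 93.9 CPM in the ID8 libraries and 5.8 to 68.0 CPM in the uninjected libraries. Plasma cell markers summed to 241 to 284 CPM in the ID8-FSHR libraries, 299 to 349.5 CPM in the ID8 libraries and 346 to 412 CPM in the uninjected libraries. Xbp1 made up 38.4 to 66.2% of this sum. The other 6 plasma cell markers summed to 103 to 115 CPM in the ID8-FSHR libraries, 112 to 129 CPM in the ID8 libraries and 171 to 254 CPM in the uninjected libraries. The part of these cells was not tested either.

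Levels of different genes were compared as CPM per kilobase of merged exons. On this scale the highest members in ID8-FSHR mice were Il2rg at 38.0 ± 13.2, Il10ra at 30.9 ± 7.35, Il6st at 26.8 ± 5.56 and Il13ra1 at 23.9 ± 4.45 (SD, n = 4), and the libraries of each overlapped those of the next. In ID8 mice Il6st led at 41.9 ± 1.45, clear of Il10ra at 25.3 ± 2.01, Il13ra1 at 23.6 ± 2.30 and Il2rg at 23.1 ± 5.10, which overlapped each other in that order. In uninjected mice Il10ra led at 56.2 ± 3.17, clear of Il2rg at 42.0 ± 3.31 and Il6ra at 37.8 ± 1.89, which overlapped, and Il10rb followed at 29.5 ± 2.23. Il5ra stood 7th in uninjected mice at 21.9 ± 2.56 and was not among the first 11 in either tumour group, while Il17rc entered the first 11 in ID8 mice, at 6.34 ± 0.573.

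**Figure D5:**
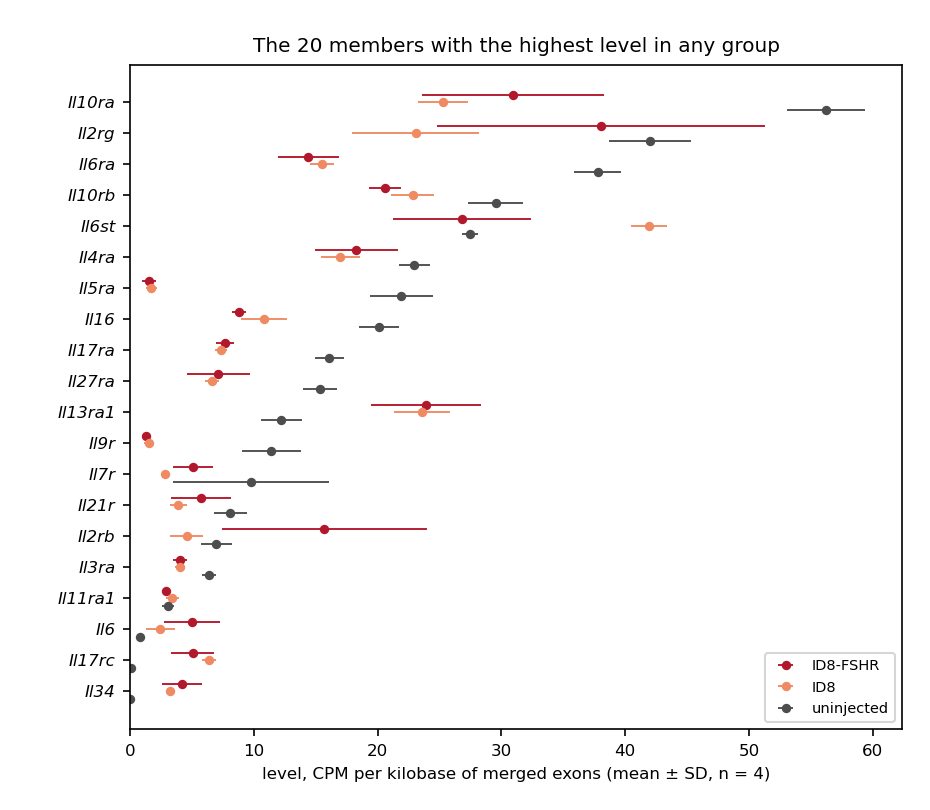
Level of the 20 members that were highest in any group, in CPM per kilobase of merged exons, as mean ± SD of 4 libraries per group. Il6st leads in ID8 mice at 41.9, Il2rg in ID8-FSHR mice at 38.0 and Il10ra in uninjected mice at 56.2.

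In all, 14 tested members were called in no comparison, namely Il10, Il15, Il7, Il4, Il5, Il1f9, Il2ra, Il15ra, Il12rb1, Il11ra1, Il20rb, Il31ra, Il23r and Il1rl2. Their log2 fold changes ran from -1.45 (Il23r) to 2.26 (Il5) in ID8-FSHR against uninjected mice, from -1.93 (Il23r) to 1.5 (Il5) in ID8 against uninjected mice and from -0.49 (Il1f9) to 1.76 (Il12rb1) between the tumour lines. Il23r, the specific IL-23 receptor chain, had 20, 16 and 51 counts in ID8-FSHR, ID8 and uninjected mice. Il15ra, which presents IL-15 to neighbouring cells, averaged 14.2 ± 4.5 CPM in ID8-FSHR mice, 10.5 ± 4.13 CPM in ID8 mice and 12.5 ± 1.41 CPM in uninjected mice. Il1rl2, the IL-36 receptor, averaged 3.14 ± 2.88 CPM in ID8-FSHR mice, 1.43 ± 0.66 CPM in ID8 mice and 2.27 ± 0.232 CPM in uninjected mice, and its highest value was 7.4 CPM in ID8-FSHR replicate 2.

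Of the 25 members under the filter on low counts, 14 had 0 counts in all 12 libraries. These were Il17a, Il17b, Il25, Il3, Il9, Il22, Il20, Il31, Il1f5, Il1f6, Il1f10, Il11ra2, Il1rapl1 and Il1rapl2. The ligands of Il9r and Il3ra are thus among those with 0 counts, which allows up to 0.0444 to 0.0653 CPM. The other 11 had few. Il17d, a ligand related to IL-17, had 36 counts over the ID8-FSHR group, 22 over the ID8 group and 2 over the uninjected group. Il11, a gp130 ligand, had 10, 36 and 7 counts in the ID8-FSHR, ID8 and uninjected groups, and Il24, a relative of IL-10, 23, 8 and 0. Il21, a T cell cytokine, had 18, 2 and 10, and Il2, the T cell growth factor, 1, 4 and 12. Il22ra2, the soluble IL-22 decoy, had 8, 4 and 12 counts. Il19, Il1f8 and Il20ra had 8, 2 and 2 counts over all libraries.

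The JAK, STAT and other signalling genes downstream of these receptors were taken as a list of 44 genes, all of them tested. In ID8-FSHR against uninjected mice 9 were higher and 22 lower, where 33.9% and 30.6% of all tested genes were. In ID8 against uninjected mice 10 were higher and 27 lower, where 32.7% and 31.4% of all tested genes were. The median log2 fold change of the list was -0.37 in each comparison, beside 0.00 and -0.03 over all genes. The STAT and kinase genes did not move as 1 block. Stat3, which IL-6 activates, averaged 309 ± 19.7 CPM in ID8-FSHR mice (log2 fold change 0.46, SE 0.08, adjusted p = 0.000165) and 350.2 ± 27.6 CPM in ID8 mice (log2 fold change 0.64, SE 0.08, adjusted p = 9.43e-06), against 225 ± 14.5 CPM in uninjected mice. Stat5b, a STAT of IL-2 and IL-5 signalling, was lower, at 77.5 ± 8.61 CPM in ID8-FSHR mice (log2 fold change -0.79, SE 0.08, adjusted p = 1.79e-06) and 69.3 ± 4.52 CPM in ID8 mice (log2 fold change -0.95, SE 0.08, adjusted p = 3.4e-07), against 134 ± 4.64 CPM in uninjected mice.

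Gata3, which codes for a lymphoid transcription factor, was higher in both tumour groups. It averaged 14.9 ± 0.832 CPM in ID8-FSHR mice and 11.9 ± 0.836 CPM in ID8 mice, against 3.77 ± 0.824 CPM in uninjected mice (adjusted p = 8.87e-08 and 3.91e-07). Between the tumour lines 2 signalling genes were higher in ID8-FSHR mice and 1 was lower, where 6.04% and 5.56% of all tested genes were. Stat4, the STAT of IL-12, averaged 24.7 ± 5.49 CPM in ID8-FSHR mice and 16.6 ± 1.09 CPM in ID8 mice (log2 fold change 0.58, SE 0.13, adjusted p = 0.0123), and was lower in both than in uninjected mice, at 43.7 ± 2.65 CPM. Lck, a T cell kinase, averaged 25.7 ± 11.2 and 10.4 ± 1.87 CPM in ID8-FSHR and ID8 mice (log2 fold change 1.30, SE 0.32, adjusted p = 0.0226), and Irs2, an adaptor of IL-4 receptors, 20.5 ± 2.11 and 29.0 ± 2.7 CPM in ID8-FSHR and ID8 mice (log2 fold change -0.50, SE 0.09, adjusted p = 0.00337).

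Of 17 genes for receptor partners and gp130 ligands without an interleukin symbol, 12 were tested. In ID8-FSHR against uninjected mice Ifnlr1, Ctf1, Lif and Osmr were higher and Crlf2, Lifr and Ebi3 lower, and in ID8 against uninjected mice the same 4 and Clcf1 were higher, and Crlf2, Lifr, Ebi3, Csf2rb and Csf2ra lower. Lif, a gp130 ligand, had 6.63, 6.78, 9.2 and 13.7 CPM in ID8-FSHR mice, 20.7, 16.1, 15.5 and 16.2 CPM in ID8 mice and 0.71, 1.01, 0.848 and 0.566 CPM in uninjected mice. Lif was higher in both tumour groups (adjusted p = 1.35e-07 in ID8-FSHR mice and 2.17e-08 in ID8 mice). Between the tumour lines Lif was lower in ID8-FSHR than in ID8 mice (log2 fold change -0.92, SE 0.23, adjusted p = 0.0219), as were Osmr and Il6st. Ebi3 was higher in ID8-FSHR than in ID8 mice (log2 fold change 0.98, SE 0.24, adjusted p = 0.0202).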

How the data were processed

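Bulk RNA-seq of peritoneal lavage cells was analysed in 12 libraries, 4 in each of 3 groups, as whole-number counts per gene that the authors deposited. Per the labels' protocols, RNA was extracted with a miRNeasy Micro kit and made into ribosomal RNA-depleted libraries (KAPA RNA HyperPrep with RiboErase). The submitters' processing notes name bcl2fastq 2.20, STAR 2.7.9a, featureCounts, Subread 1.6.4 and build GRCm38.p6, and no source used here gives the strand setting or the treatment of read mates. Of counts from 1 to 20, 73.4 to 76.2% were even, so counts are not all single independent fragments, counting intervals are too narrow, and the floor of 3 counts and the lower bounds of fold that rest on it are less strict than the same floor in fragments. Replicate numbers are those of the labels, where the ID8-FSHR titles skip numbers.

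Counts were tested in R 4.3.3 with edgeR 4.0.16 (filterByExpr, TMM scaling, robust quasi-likelihood fit of all 12 libraries with group as the only term, Benjamini-Hochberg adjustment over all tested genes, threshold 0.05). CPM are deposited counts divided by TMM-scaled library sizes, and folds against a group at 0 use a floor of 3 counts over that group. DESeq2 1.42.0, limma-voom (limma 3.58.1), other scalings and filters, single left-out libraries and a replicate block were alternatives, and the fit was tested on simulated counts. Members with an adjusted p under 0.05 in any comparison and a mean of at least 1 CPM are given in every library with log2 fold change, SE and adjusted p, other tested members by group means or range, members under the filter by summed counts, and signalling genes by at most 5 per direction and comparison with the smallest adjusted p. The members and all gene lists were chosen with earlier results of these data known. Gene coordinates come from the GENCODE annotation of GRCm38 and promoter windows from RefSeq. Some genes of the marker and signalling lists are counted in their lists but not reported here by name.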

Additional observations from a re-analysis of the deposited data

Results flagged for a closer look

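Among 120 sets of 4 libraries of 1 group (members and marker sums), 3 held a library farther from the others than Dixon's critical value for 4 samples allows, which chance passes in about 1 set in 20. Il6 in ID8-FSHR replicate 2 had 20.4 CPM, against 8.65 to 10.4 CPM in the other 3 libraries of its group. Il17rc in the same library had 6.54 CPM, against 15.1 to 16.6 CPM. The summed markers of monocytes and small macrophages in ID8 replicate 1 were 16944 CPM, against 21493 to 21887 CPM in the other ID8 libraries. This is the value of Fn1, which made up 95.8 to 96.7% of the sum in ID8 libraries, and the other 11 markers summed to 702 to 919.7 CPM across them.

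For 7 members the edgeR test of ID8-FSHR against ID8 mice passed the threshold. It is also the test of whether the difference from uninjected mice was the same in the 2 tumour groups. These are 14.9% of tested members, beside 11.6% of all tested genes. Of the 7 calls, 4 held in every alternative, and those of Il12rb2, Il17rd and Il13ra2 did not. The log2 fold change was positive for Il2rb (1.77), Il18rap (1.62), Il18r1 (1.36) and Il12rb2 (1.25), and negative for Il13ra2 (-1.77), Il17rd (-0.96) and Il6st (-0.65). The summed NK cell markers were likewise higher, and the summed tumour and mesothelium markers lower, in the mean of ID8-FSHR mice, as given in the results, and their part was not tested.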

How the results depend on the processing

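Over 20 alternatives, 57 of the 65 calls of a member in a comparison held wherever the member could be fitted, and none of these 57 changed sign. Between the tumour lines, 9 members were higher in ID8-FSHR mice with DESeq2, where 4 were in the edgeR fit. With single libraries left out, this count ran from 3 to 11, with 11 without ID8-FSHR replicate 1. The count of lower members ran from 1 to 3, with 1 without ID8 replicate 1, 3 or 4 or ID8-FSHR replicate 4. Of all tested genes, 6.04% were higher in the edgeR fit, 8.39% with DESeq2 and 10% without ID8-FSHR replicate 1. Over single left-out libraries, 3.22 to 10% of all tested genes were higher and 2.35 to 8.14% lower. Against uninjected mice, leaving out single libraries gave 13 to 16 higher and 12 to 14 lower members in ID8-FSHR mice. In ID8 mice it gave 12 to 13 higher and 18 to 19 lower members. Of all tested genes, 31.5 to 37.3% were then higher and 27 to 29.8% lower in ID8-FSHR mice. In ID8 mice 30.5 to 36.2% of all tested genes were higher and 27.5 to 31.4% lower. Il6st in ID8-FSHR against uninjected mice, at -0.03, had the opposite sign with DESeq2 (0.0185), with median-of-ratios scaling (0.0161) and without ID8-FSHR replicate 2, in a range of -0.12 to 0.21 over single left-out libraries. A filter of at least 1 CPM in 4 libraries left 35 members to test and no filter 58.

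Same-numbered libraries did not deviate together (1 of 12 pairs with a correlation over 0.1, range -0.11 to 0.19). Of 12 libraries, 1 correlated best with its own number in both other groups. No pairing by number was seen in the counts, which cannot show whether the mice were handled in pairs. With the replicate block, 13 members were higher and 13 lower in ID8-FSHR against uninjected mice, where 33% and 30.1% of all tested genes were. In ID8 against uninjected mice 12 and 18 members were, beside 31.9% and 30.6% of all tested genes. In ID8-FSHR against ID8 mice 4 and 4 members were, beside 5.08% and 5.42%. Members of few counts have wide errors. The sums without the leading marker, and the values of Il13 and Il23a without single tumour libraries, were chosen after seeing the data.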
